A study of Mus musculus with 8 samples.

Results

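Sequences of 19 to 23 nt that the deposited annotation left blank were taken from a single list of distinct small RNA sequences of mouse testes, by blank annotation and length alone. There were 480966 of them among 6246223 listed sequences, or 7.70%, and they made up 15.3% of all unannotated sequences and 55.2% of the 871566 sequences of 19 to 23 nt. The labels describe 8 libraries of total RNA size selected to 19 to 33 nt, with 1 library in each of 8 groups. The list nevertheless held unannotated sequences from 15 to 36 nt, so the lengths listed ran past both limits of the selection. The groups were testes homozygous and testes heterozygous for the Tdrd1 knockout at 18.5 days post coitum, and testes homozygous and testes heterozygous for the Tdrd6 knockout at 18 days, 25 days and 6 weeks after birth. Every library came from whole testes that carried at least 1 knockout allele. No wild-type library was analysed here, and the labels do not say whether a library came from 1 animal or from several. The list did not tie a sequence to a library and held no read number, so mutants and heterozygotes could not be compared, the targeted genes could not be checked, and depth was unknown. Values are numbers or shares of distinct sequences, with no weight for how often a sequence was read, and there were no replicates. No test was run. Intervals are exact 95% Clopper-Pearson intervals that cover counting error only, and sequences that overlap each other are not independent.

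Germ cells of the mouse testis make piRNAs, small RNAs that are bound by Piwi proteins and mostly begin with uridine. Long precursor RNAs are cut to set the 5′ end, after which the 3′ end is trimmed and methylated, so several lengths can share a 5′ end. Shorter small RNAs of the testis include miRNAs, which are cut by Dicer from hairpins, and fragments of longer RNAs. TDRD1 and TDRD6 are Tudor-domain proteins that bind Piwi proteins in the germ granules of these cells. In what follows, sequences of 24 to 33 nt are called piRNA-length, a member is an unannotated sequence of 19 to 23 nt, and T stands for uridine because the list was written in DNA letters.

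Most members shared a start or an end with a piRNA-length sequence. A start was called shared when the first 18 nt of the member were also the first 18 nt of a listed piRNA-length sequence, and an end when the last 18 nt were also its last 18 nt. The following sequences show what a shared start looks like. For each length, the member with a map number of 1 (listed as mapping to 1 position) whose start was shared with most piRNA-length sequences was chosen, among those placed on a transcript. The shared 18 nt are in capitals. The first set lies at chr17:27358903-27358921, plus strand of GRCm38, in exon 1 of the lincRNA gene Gm49794, and the member's start was shared with 10 piRNA-length sequences.
Gm49794 19 nt member: AAGGAAGACACTCTGAGTc
Gm49794 24 nt: AAGGAAGACACTCTGAGTctatgg
Gm49794 29 nt: AAGGAAGACACTCTGAGTctatggcagtg

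The members of 20 and 21 nt chosen in this way had the same start, at chr10:86571965-86571984 and chr10:86571964-86571984 on the minus strand, antisense to exon 1 of the processed pseudogene Gm48450. Their first 18 nt were shared with 23 piRNA-length sequences. Of those that were unannotated, had a map number of 1 and continued the member, 8 matched only this gene.
Gm48450 20 nt member: TAAAAGATTTTAATATCAag
Gm48450 21 nt member: TAAAAGATTTTAATATCAaga
Gm48450 24 nt: TAAAAGATTTTAATATCAagattg
Gm48450 29 nt: TAAAAGATTTTAATATCAagattgacaat

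The members of 22 and 23 nt with most partners had the same first 18 nt and different bases after them, and each continued into the longer sequences of its own locus. The 22 nt member lay at chr10:86622029-86622050 on the plus strand, antisense to the processed pseudogene Gm48474, and the 23 nt member at chr10:86571886-86571908 on the minus strand, antisense to Gm48450. Both starts were shared with 31 piRNA-length sequences, which therefore came from more than 1 locus.
Gm48474 22 nt member: TATTCTTTGCATCTTCCTtctg
Gm48474 25 nt: TATTCTTTGCATCTTCCTtctgccg
Gm48474 28 nt: TATTCTTTGCATCTTCCTtctgccgcag
Gm48450 23 nt member: TATTCTTTGCATCTTCCTcctgt
Gm48450 24 nt: TATTCTTTGCATCTTCCTcctgtc
Gm48450 29 nt: TATTCTTTGCATCTTCCTcctgtcgaagg

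Shared ends looked different, because the members lacked bases at their 5′ side. The members of 19, 20 and 22 nt whose end was shared with most piRNA-length sequences all ended at the same base of chromosome 10, at chr10:85767350-85767368, chr10:85767349-85767368 and chr10:85767347-85767368 on the plus strand, antisense to exon 1 of the processed pseudogene Gm47367. Their last 18 nt were shared with 15 piRNA-length sequences. The 3 members began with T, A and C, while of the longer sequences below the 24 nt one began with T and the 29 nt one with G. The start of each of the 3 members was also shared with a piRNA-length sequence.
Gm47367 19 nt member: tAACCTGGAAGAGGTTAGT
Gm47367 20 nt member: atAACCTGGAAGAGGTTAGT
Gm47367 22 nt member: ccatAACCTGGAAGAGGTTAGT
Gm47367 24 nt: taccatAACCTGGAAGAGGTTAGT
Gm47367 29 nt: gatgttaccatAACCTGGAAGAGGTTAGT

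Counted over all members, 81.3% (95% interval 81.2 to 81.4) shared a start or an end with a piRNA-length sequence. By length, the share was 69.2% of 71770 members of 19 nt, 81.0% of 75010 of 20 nt, 82.6% of 93598 of 21 nt, 83.5% of 109121 of 22 nt and 85.2% of 131467 of 23 nt. Members of 19 nt stood 11.8 points below those of 20 nt, and the later steps were of 2 points or less. A shared start was found for 49.5%, 62.7%, 67.5%, 70.6% and 74.2% of members from 19 to 23 nt. A shared end was found for 64.4%, 74.5%, 74.1%, 74.0% and 75.0%. Shared starts thus became more frequent at each length, while shared ends stayed between 74.0% and 75.0% from 20 to 23 nt. Both ends were shared, mostly with different piRNA-length sequences, by 58.3% of members (280181). Another 14.7% (70679) shared the end only, 8.34% (40096) the start only, and 18.7% (90010) neither.

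**Figure D1:**
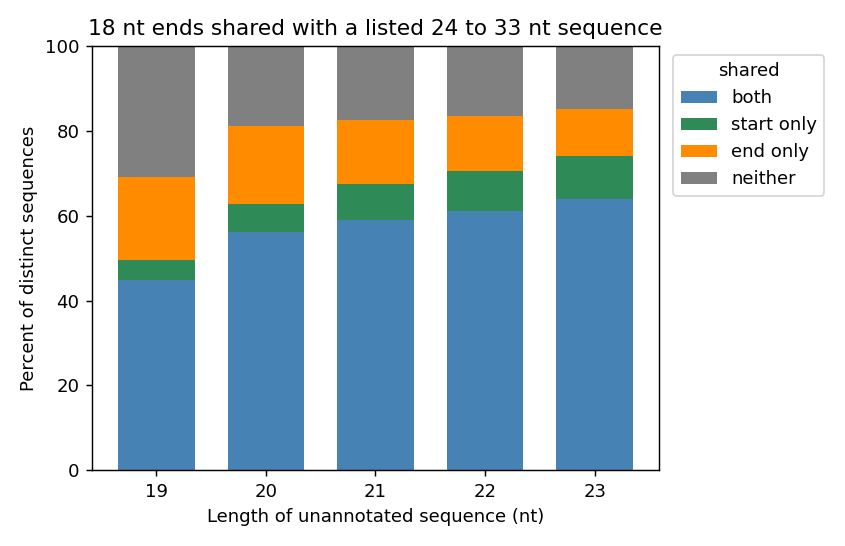
Percent of distinct unannotated sequences (vertical axis) of each length in nt (horizontal axis) that shared both ends, only the start, only the end or neither with a listed 24 to 33 nt sequence. The grey part, with neither end shared, takes 30.8% at 19 nt and 14.8% at 23 nt, and the part with only the start shared takes 4.81% at 19 nt and 10.2% at 23 nt.

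Most of these matches extended over the whole member. Of all members, 84.2% lay whole inside a piRNA-length sequence, 66.4% were identical to the beginning of one and 72.8% to the end of one, and 3.19% lay inside without reaching either end. A member identical to the beginning of a piRNA-length sequence lacked a median of 6 nt of its 3′ side at 19 nt, and 5, 3, 2 and 1 nt at 20, 21, 22 and 23 nt, counted to the shortest such sequence. These numbers cannot fall below the gap between the member's length and 24 nt, where piRNA length begins. The medians stood at that limit from 21 to 23 nt, so their decline with length follows largely from the definition. The median shared start was found in 4 piRNA-length sequences, with at most 108, and the median shared end in 4, with at most 83. The base that followed a member in the longer sequence was A in 25.7%, C in 23.3%, G in 25.3% and T in 25.5% of cases, close to even. The base that preceded a member identical to an end was A in 30.7%, C in 23.8%, G in 19.5% and T in 25.9%.

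The ends of piRNA-length sequences were dense enough that stretches in the middle of members also matched them. In members of 23 nt, the 18 nt that began at position 1 were the start of a piRNA-length sequence in 74.2%, against 60.4%, 59.1%, 58.2%, 55.4% and 54.3% for the 18 nt that began at positions 2 to 6. The 18 nt that reached the member's own last base were an end in 75.0%, against 72.1% for those that stopped 1 base earlier and 66.5% for those that stopped 5 bases earlier. A member's own 5′ end thus matched more often than any inner position, by 13.8 points or more, and its own 3′ end by 2.92 points or more. At 19 nt, where there is 1 inner position, the 5′ end stood 3.50 points above it (49.5% against 46.0%). The share also went with the base at which the stretch began. Where it was T, 84.2% of stretches at position 1 of 23 nt members were a start, against 81.9% at position 2 and 76.9% at position 6. Where it was not T, the values were 63.0%, 53.7% and 46.0%. The excess at the member's own 5′ end was therefore 2.22 points over position 2 for T and 9.33 points for other bases.

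**Figure D2:**
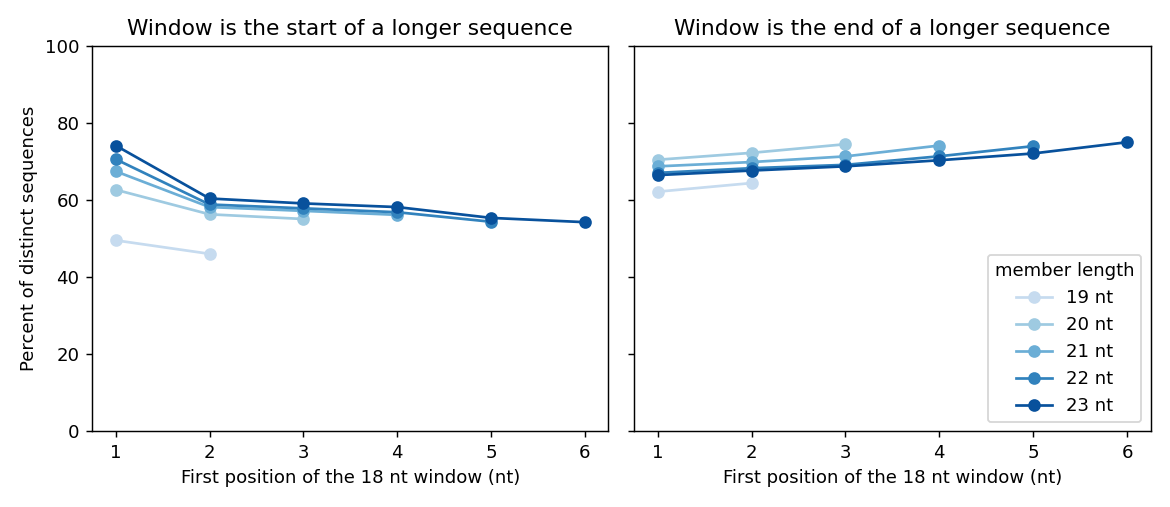
Percent of members (vertical axis) whose 18 nt window is the start (left) or the end (right) of a listed 24 to 33 nt sequence, by the window's first position in the member in nt (horizontal axis), with a line for each member length. In the left panel the line of 23 nt members falls by 13.8 points between positions 1 and 2 and then slowly, and in the right panel the lines rise slowly to the last window.

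T was the first base of 45.2% of members (95% interval 45.1 to 45.4), against 69.4% of the 2463484 unannotated piRNA-length sequences. The share increased with length, with 31.9% at 19 nt, 38.8% at 20 nt, 45.4% at 21 nt, 49.4% at 22 nt and 52.7% at 23 nt. It went on to 57.4% at 24 nt and 64.9% at 25 nt, so 23 and 24 nt were not separated by a jump. Members that shared their start began with T in 55.1% of cases, against 25.7% of those that did not share it. The order was reversed for the 3′ side, with T first in 43.2% of members that shared their end, against 50.7% of those that did not. T was first in 47.0% of members that shared a start or an end and in 37.5% of those that shared neither.

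The 4 classes of sharing lay far apart in their first base. Members that shared the start only began with T in 80.5% (80.1 to 80.8), and all members that shared a start in 55.1%. Unannotated piRNA-length sequences, which were not sorted by their ends, had T first in 69.4%. The class that shared the start only lay above this value over all lengths together and below it at 19 nt, with 65.3%. Members that shared both ends began with T in 51.4% (51.2 to 51.6), those that shared neither in 37.5% (37.1 to 37.8), and those that shared the end only in 10.6% (10.4 to 10.9). The classes exclude each other, and piRNA-length sequences mostly begin with T, so a class without a shared start is one from which many T-first members have been taken. In the class that shared the end only, A led with 36.3%, and C and G followed with 26.4% and 26.6%. Among members identical to the end of a piRNA-length sequence, 91.8% had at least 1 such longer sequence that began with T. The median shared end was found in 4 piRNA-length sequences, so 1 with T is easily met. Of the 729579 piRNA-length sequences that shared an end with a member, 56.5% began with T, against 69.4% of all unannotated ones.

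**Figure D3:**
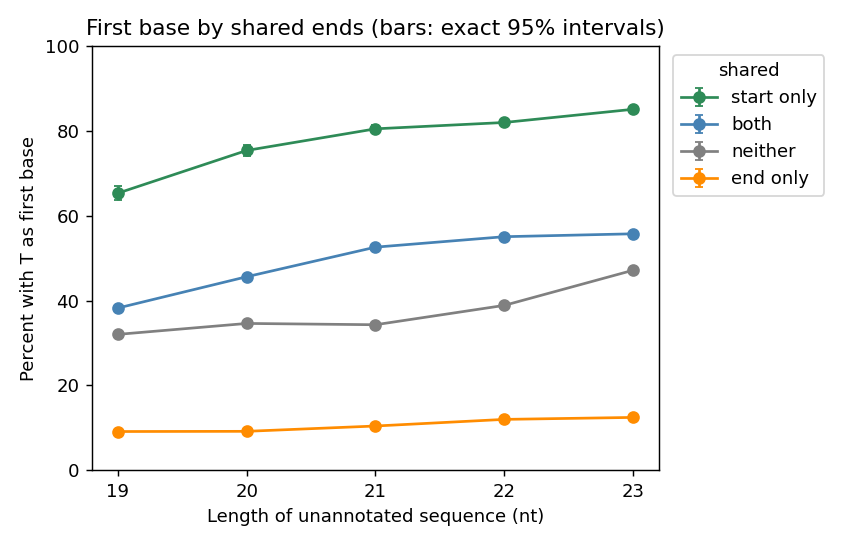
Percent of members with T as first base (vertical axis) by length in nt (horizontal axis) for the 4 classes of sharing, with exact 95% intervals as bars. The lines do not cross: members that share only the start lie between 65.3% and 85.1%, and members that share only the end between 9.12% and 12.4%.

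In each class T was first more often at 23 nt than at 19 nt, though not every step was a rise. From 19 to 23 nt, T was first in 65.3%, 75.4%, 80.5%, 82.0% and 85.1% of members that shared the start only. It was first in 38.2%, 45.6%, 52.6%, 55.0% and 55.7% of members that shared both ends. Members that shared neither end had T first in 32.02%, 34.6%, 34.3%, 38.9% and 47.1%, so the step of 8.28 points between 22 and 23 nt was the largest in this class. Members that shared the end only stayed between 9.12% and 12.4%. Read the other way round, 81.0% of T-first members shared their start, against 54.7% of members with another first base. The shared end gave the opposite order, with 69.7% of T-first members and 75.7% of the others.

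Positions behind the first also differed between the classes. A stood at position 5 in 36.0% of members that shared the start only (35.6 to 36.5), 31.3% of those that shared both ends, 26.7% of those that shared neither and 24.1% of those that shared the end only. Unannotated piRNA-length sequences had A there in 34.0%. Within members that shared the start only, A at position 5 was found in 37.2% of T-first and 31.2% of other members. T at position 2 ran the other way, with 17.2% in members that shared the start only and 30.2% in those that shared the end only. A at position 10, the position that mirrors a first T in piRNAs made by reciprocal cutting of 2 strands, was between 25.1% and 27.4% in all 4 classes, against 28.5% in unannotated piRNA-length sequences. T was the last base of 33.6% of members that shared the end only and 30.6% of those that shared both, against 31.7% of unannotated piRNA-length sequences, and of 23.3% of members that shared the start only and 25.4% of those that shared neither.

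**Figure D4:**
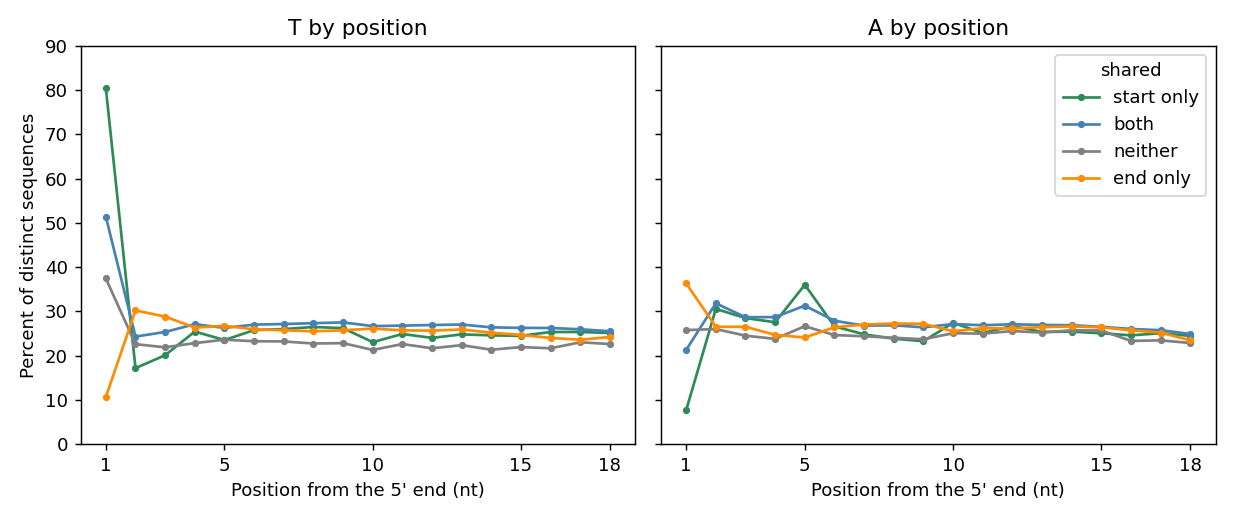
Percent of members with T (left) and with A (right) on the vertical axis at each of the first 18 positions from the 5′ end in nt (horizontal axis), by class of sharing. The classes lie far apart at position 1, where T takes 80.5% of members that share only the start and 10.6% of those that share only the end. They differ again for A at position 5, with 36.0% and 24.1%.

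Some starts were found at several member lengths. The members had 343279 distinct first 18 nt, of which 74.2% occurred at 1 member length and 2541 (0.740%) at all 5. The first 18 nt were also the start of a piRNA-length sequence for 47.3% of those seen at 1 length, 83.1% at 2, 91.5% at 3, 95.03% at 4 and 97.0% at all 5. T was the first base of 38.9% of those seen at 1 length and 64.7% of those seen at all 5. Starts that were listed at more lengths below 24 nt were thus also listed more often above it and began more often with T.

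Seen from the longer side, 805268 listed piRNA-length sequences shared a start with a member, and 99.3% of them were unannotated too. Of all 4883266 listed piRNA-length sequences, 2463484 were unannotated. Members were themselves chosen by blank annotation, so the 99.3% is not independent of the rule. The piRNA-length sequences that shared a member's start began with T in 69.2%, close to the 69.4% of all unannotated piRNA-length sequences. Their lengths leaned away from the middle of the range. Those of 25 to 27 nt made up 39.6%, against 45.7% of all unannotated piRNA-length sequences, and those of 29 to 31 nt made up 31.9%, against 29.7%. Among all listed sequences of a length, the share with a member's start was lowest at 27 nt (12.0%) and higher at 24 nt (27.6%) and 33 nt (31.03%).

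The map number is the number of positions to which the authors found a sequence to map. It was 1 for 88.8% of members, from 84.3% at 19 nt to 90.3% at 23 nt, and above 10 for 1.36%. Members that shared a start or an end had a map number of 1 in 89.3% (89.2 to 89.4), against 86.8% (86.6 to 87.0) of those that shared neither. By class, it was 90.3% where both ends were shared, 87.6% where only the end was, 84.9% where only the start was and 86.8% where neither was. The difference between members that shared a start or an end and the others was small at each length: 84.7% against 83.3% at 19 nt, 88.6% against 85.9% at 20 nt, 89.9% against 88.0% at 21 nt, 90.1% against 88.5% at 22 nt and 90.5% against 88.9% at 23 nt. Turned round, the share of members with a shared start or end was 81.7% at a map number of 1, 78.9% at 2, 78.0% from 3 to 10, 74.6% from 11 to 100 and 70.2% above 100. Of the members above 100, 23.8% consisted to more than 60% of a single base. The highest map number of a member, 1507940, was in the class that shared both ends. T was first in 39.3% of members with a map number above 100 and in 44.4% to 46.7% of the others.

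Short sequences with an annotation were shared to other degrees. Among sequences of 19 to 23 nt with a map number of 1, 81.7% of members shared a start or an end with a piRNA-length sequence, against 27.5% of those annotated with an mRNA accession, 49.2% of those in miRNA hairpins, 66.8% of those with other annotations and 89.6% of those of ribosomal RNA. T was the first base of 45.2% of these members, against 42.1% for mRNA accessions, 29.03% for miRNA hairpins, 48.7% for other annotations and 24.7% for ribosomal RNA. At a map number of 1, members thus stood nearest ribosomal RNA in how often a start or an end was shared and far from it in their first base. This order depended on the map number, which was 1 for only 33.5% of the ribosomal RNA sequences. At any map number a start or an end was shared by 81.3% of members, 94.8% of ribosomal RNA sequences and 70.6% of those with other annotations. Members then stood nearer to the other annotations.

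Blank annotation did not mean that a sequence lay outside annotated transcripts. Of 427108 members with a map number of 1, 72071 (16.9%) matched a GENCODE M21 transcript of GRCm38 exactly and over their whole length. Of unannotated piRNA-length sequences with a map number of 1, 18.3% did so. Matches were to the sense strand only for 83.1% and to the antisense strand only for 15.3% of the matched members. Matched unannotated piRNA-length sequences had nearly the same strands, with 82.4% sense only and 16.1% antisense only. Sense matches to noncoding transcripts took 9.12% of members and sense matches to coding transcripts 4.65%, against 7.68% and 7.11% of the unannotated piRNA-length sequences. Introns and the space between genes were not searched, because no genome sequence was used.

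Members that shared a start or an end and those that shared neither were placed on different kinds of transcript. Of members that shared either, 10.1% matched noncoding transcripts in sense and 2.64% coding transcripts. Of members that shared neither end, 4.84% matched noncoding and 13.6% coding transcripts in sense. Counted from the genes, 91.0% of the 38147 members on noncoding genes shared a start or an end, against 47.1% of the 18798 on coding genes. The members on noncoding genes were concentrated, with 66.3% on the first 10 of 1309 genes. Those on coding genes were spread over 3627 genes, of which the first 10 held 28.4%. On all these genes, members made up 19.2% of the members and piRNA-length sequences counted together on noncoding genes and 11.7% on coding genes. The same concentration was not computed for piRNA-length sequences, so it is not shown to be particular to members.

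The 10 noncoding genes with most members were noncoding RNA genes, several of them known as piRNA precursors of the meiotic stages of the mouse. Gm49794 (chr17:27354111-27367492, plus strand) held 6773 members beside 18420 piRNA-length sequences, Gm21269 (chr7:73816546-73838898, plus strand) 5045 beside 17597, and Gm10505 (chr17:27325035-27344833, plus strand) 3266 beside 9317. Gm10619, on the strand opposite to its neighbour Gm21269, held 2180 members beside 8663 piRNA-length sequences, and 1700001L05Rik held 2138 beside 8792. The others were Gm30132 with 1353, 4933440M02Rik with 1233, 1700029M20Rik with 1198, Gm21388 with 1130 and Gm14244 with 986 members. Members made up 13.5% to 26.9% of the sequences of 19 to 33 nt counted on these 10 genes. In all 10, between 97.2% and 99.3% of members shared a start or an end with a piRNA-length sequence, and T was the first base less often in members (41.2% to 50.4%) than in piRNA-length sequences of the same gene (54.0% to 69.6%).

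Coding genes held fewer members, which by the rule carried no mRNA accession. The piRNA-length sequences counted beside them were likewise unannotated, so any listed with an mRNA accession were left out. 1700006A11Rik held 1010 members beside 4135 piRNA-length sequences. Ago2, the Argonaute that cuts siRNA targets in mammals, held 752 beside 6177. Nemp1, which encodes a protein of the inner nuclear membrane, held 4733 piRNA-length sequences, and members were 13.5% of both together. Cbl, which encodes a ubiquitin ligase that acts on receptor tyrosine kinases, held 719 beside 4584, and Eif4ebp2, which encodes a repressor of translation initiation, 481 beside 2903. Elfn2 held 399, D10Wsu102e 227, Zfp652 217 and 4933414I15Rik 198 members. Among the 10 coding genes with most members, members made up 7.83% to 19.6% of the sequences counted, and between 59.5% (D10Wsu102e) and 98.9% (1700006A11Rik) of them shared a start or an end. The first base was T less often in members than in piRNA-length sequences of the same gene in 10 of 10. Over all genes with at least 100 piRNA-length sequences, members were a median of 12.8% of the sequences on 71 noncoding genes and 7.40% on 246 coding genes.

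Of 18 genes listed as rich in piRNA-length sequences from earlier results of these data, 17 held at least 1 member. The list overlaps the genes above, and its other genes were 4930444F02Rik with 833 members, Tbl2 with 16, Ddx19b with 4, and Asb1, to which no member was matched as its only gene. On Tbl2, 198 piRNA-length sequences were counted and on Ddx19b 8. These counts, too, leave out piRNA-length sequences with an annotation or a map number above 1.

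Antisense members lay on pseudogenes more often than sense members did. Of 10633 members antisense to 1 gene, 26.4% (25.6 to 27.3) lay on pseudogenes, against 1.92% (1.81 to 2.03) of 59109 sense members. The 10 genes with most antisense members, a list made after these values were seen, were led by CT025671.4 with 1397, Gm42811 with 850 and Stox1, which encodes a winged-helix protein, with 672. Of the members antisense to Gm47367, which carries the shared ends printed above, there were 222, and 98.2% shared a start or an end. In all 10 genes, members began with T less often (26.4% to 54.9%) than piRNA-length sequences on the same strand (45.0% to 72.0%). The exception in sharing was Gm21269, where 64.4% of its 295 antisense members shared a start or an end, against 93.2% to 99.6% on the other 9.

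A few members lay in miRNA hairpins. Of 1005 RefSeq hairpins, 85 held 770 members, or 0.160% of all members, and 62 members were identical to a mature miRNA. Hairpins of the let-7 genes named Mirlet7, of the mir-17 to mir-92, mir-290 to mir-295, mir-34 and mir-449 and mir-200 families and of the X-linked testis cluster held no member, and each family had 77 to 550 annotated sequences of 19 to 23 nt. An annotated sequence cannot be a member by the rule, so having no member does not mean that a family was absent from the list. The hairpin of let-7j, listed in RefSeq as Mir7j, held 9 members. Of the 10 mature miRNAs at whose start, within 1 nt, most members began, 9 are printed from RefSeq (GRCm38.p6), in RNA letters and with the seed, bases 2 to 8, in capitals. No 2 of them had the same seed.
mmu-miR-7234-3p: aAACGUCUuucuaggguagaagg
mmu-miR-7217-5p: aACUUGUAucuugugagacagaagg
mmu-miR-7232-5p: uACAUGGAugauuguuuuuccaag
mmu-miR-7230-5p: aGACUGCUguuucucugaguggc
mmu-let-7j: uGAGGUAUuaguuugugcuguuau
mmu-miR-1247-5p: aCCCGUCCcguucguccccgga
mmu-miR-1251-5p: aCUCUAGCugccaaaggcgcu
mmu-miR-1193-3p: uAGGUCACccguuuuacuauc
mmu-miR-3072-3p: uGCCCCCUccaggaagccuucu

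These 9 miRNAs fell apart by what else lay at their start. The first 4 printed had 8, 7, 7 and 6 members there, all of which shared a start or an end with a piRNA-length sequence. The members at the start of miR-1247-5p (7), miR-1193-3p (6) and miR-3072-3p (6) shared neither, and 0 piRNA-length sequences began within 1 nt of these 3 miRNAs. Members at the start of let-7j and miR-1251-5p were between, with 5 of 7 sharing a start or an end in each. A mature sequence was itself listed as a member for 6 of the 9. The others, miR-7217-5p, miR-7232-5p and let-7j, have mature sequences of 24 or 25 nt, which are too long to be members.

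Whole hairpins differed in the same way. A line drawn at 20 members after the values were seen left 13 hairpins, all named Mir72 with 2 further digits, from Mir7214 with 68 members and Mir7217 with 65 to Mir7233 with 23. They held 511 members and 1188 piRNA-length sequences, with more piRNA-length sequences than members in 13 of 13. Mir7214 (chr17:27317035-27317095, minus strand) had 68 members beside 128 piRNA-length sequences, and its members began at 26 different positions of its 61 nt. Of the 511 members, 99.4% (98.3 to 99.9) shared a start or an end. Of the 13 hairpins, 5 lay on the same strand within a noncoding gene, among them Mir7217 in Gm49794, Mir7234 in Gm21269, Mir7216 in Gm10505 and Mir7214 in Gm49793. The 72 hairpins with 1 to 19 members held 273, with a member counted in each hairpin it matched, and 27.8% (22.6 to 33.6) of them shared a start or an end. Of these 72, 7 held more piRNA-length sequences than members, among them Mir7229 with 12 members, all sharing a start or an end, beside 37 piRNA-length sequences and Mir7215 with 6 members, likewise all sharing, beside 43. The line at 20 members thus did not separate the hairpins fully. Mir1193 (chr12:109715671-109715791, plus strand) had 17 members beside 2 piRNA-length sequences, and 11 of the 17 began within 1 nt of a mature start. Mir1247 had 10 members, Mir3072 9 and Mir344c 7, with 0 piRNA-length sequences in each. In 333 hairpins with annotated sequences of 19 to 23 nt and no member, 0.210 piRNA-length sequences were listed per sequence of 19 to 23 nt, against 2.32 in the 13 hairpins.

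**Figure D5:**
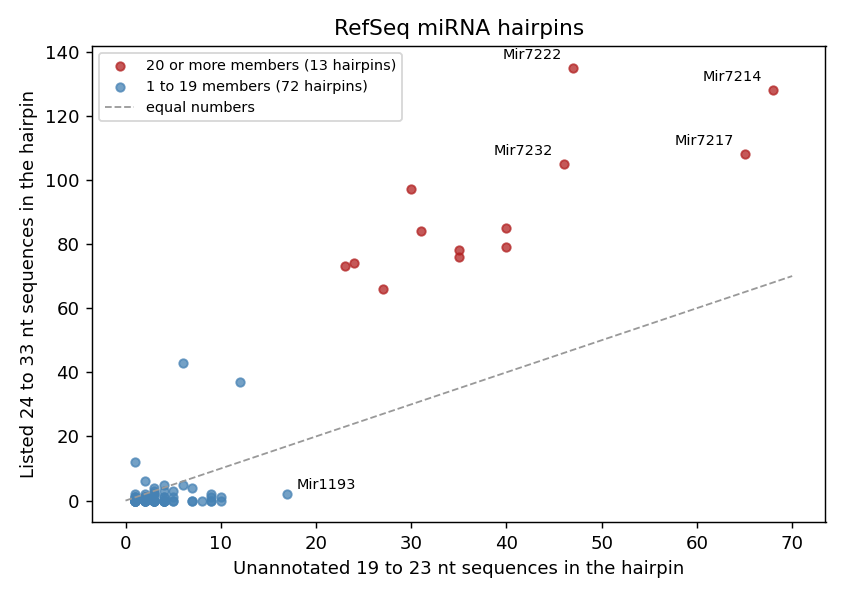
Number of listed 24 to 33 nt sequences (vertical axis) against the number of members (horizontal axis) in each of the 85 RefSeq hairpins that hold a member, with the line of equal numbers. The 13 hairpins with 20 or more members lie above the line, with 66 to 135 longer sequences, while Mir1193 lies near the bottom with 17 members and 2 longer sequences.

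Partners on the opposite strand were sought from the sequences alone. Reciprocal cutting by Piwi proteins leaves 5′ ends that overlap by 10 nt, and Dicer leaves duplexes with short 3′ overhangs. With 10 bases compared, 40.9% (40.7 to 41.1) of 298677 distinct member starts had a partner among members at an overlap of 10 nt, against a mean of 39.5% (39.1% to 40.3%) at overlaps of 11 to 20 nt, which is 1.03 times as many. Members with a map number of 1 gave 37.6% at 10 nt and a mean of 36.3% at 11 to 20 nt. A longer comparison was added after these values were seen, because 10 bases are too few to place a partner. With the whole overlap compared, from 15 to 20 nt, 0.912% to 1.02% of 266532 starts with a map number of 1 had a partner among members and 2.76% to 3.74% among piRNA-length sequences. The values for members lay close together at all 6 overlaps, and those for piRNA-length sequences became lower as more bases were compared. Members that shared the start only had more partners among piRNA-length sequences (a mean of 4.05% over these overlaps) than those that shared both ends (3.02%), neither (2.88%) or the end only (2.72%).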

How the data were processed

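Total small RNA of mouse testes was size selected to 19 to 33 nt, ligated to linkers with T4 RNA ligase and amplified, per the labels' protocols. The authors deposited 1 list with 3 columns: a distinct sequence, its map number (other unit: a number of positions, not a read count) and an annotation. Which aligner, build, annotation order and read minimum they used is not given in the sources used here, and 0 columns were tied to a library, so group comparisons and depth per sample could not be had. Ligation and the absence of read numbers leave abundance unmeasured, and rare and frequent sequences weigh the same.

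Sharing of 18 nt was computed exactly. Members and unannotated piRNA-length sequences, each with a map number of 1, were matched over their whole length to 141767 GENCODE M21 transcripts (GRCm38) on both strands. Those matching 1 gene were counted on that gene. Members of any map number were matched to RefSeq hairpins. The code was checked on random sequences and random transcripts made for the purpose, not on the deposited list or on GENCODE transcripts. All 4000 simulated sequences were returned in their class, 2000 of 2000 others at their transcript position, and 0 of 1000 random sequences matched. Such a check gives no rate of false matches for the real list and transcripts. Named are the 10 noncoding and 10 coding genes with most sense members, a list of 18 genes, and the 10 mature miRNAs with most members, of which 1 gene and 1 miRNA are not reported here. Of the sequences chosen for each length by number of partners, some are printed. Members, lists and rules were chosen with earlier results of these data known. Alternatives were a 15 nt stretch, whole-member identity, piRNA length of 25 to 32 nt, unannotated longer sequences only, a map number of 1, no sequence with over 60% of 1 base, each first 18 nt once, and transcripts at any map number. Python 3.11.15 was used with scipy 1.17.1 and numba 0.67.0.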

Additional observations from a re-analysis of the deposited data

How the results depend on the processing

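The order of the 4 classes of sharing in first base and in map number held under every alternative run for them, and most shifts, though small, exceeded counting error. A start or an end was shared by 81.3% of members, and by 82.0% with a stretch of 15 nt, 80.7% with longer sequences of 25 to 32 nt, 81.0% with unannotated longer sequences only, 81.7% of members with a map number of 1, 81.6% without sequences of over 60% of 1 base, and 81.0% with identity of the whole member. In the same order the shared start took 67.1%, 64.3%, 66.3%, 67.2%, 66.9% and 66.4%, and the shared end 73.4%, 71.7%, 72.6%, 73.7%, 73.3% and 72.8%. T was first in 36.8% of members that shared neither end with 15 nt and in 37.9% without sequences of over 60% of 1 base. With each first 18 nt counted once it was first in 43.4% of members that shared a start or an end. A map number of 1 was found in 87.3% of members that shared neither end with 15 nt, 86.6% with 25 to 32 nt, 86.3% with unannotated longer sequences and 87.2% without sequences of over 60% of 1 base, and in 89.1% of those that shared a start or an end with 15 nt, 89.4% with unannotated longer sequences and 88.4% with each first 18 nt once. Members lay whole in longer sequences of 25 to 32 nt in 83.9%. Transcripts were matched by 19.6% at any map number. Partners at 10 nt were found for 37.6% of starts with a map number of 1. Of 66 further values under alternatives, 41 moved by more than counting error, by at most 3.43 points. No paired analysis was possible because the list holds no column per library. Unknown depth limits all values: a longer sequence that was not listed may not have been sequenced.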
